A study of Mus musculus with 4 samples.

Results

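The messenger RNAs of 45 protein genes of the large (60S) subunit of the cytosolic ribosome were followed in RNA that came down with the kinesin-1 heavy chain KIF5C from mouse hippocampus. The genes were chosen by symbol, from Rpl3 to Rpl41 and Rplp0 to Rplp2, and all 45 had a row among the 37411 gene rows of the count table. Rpl18 and Rpl24 were listed at 0 in every library, so 43 genes could be tested. The KIF5C group holds 2 libraries made with a kinesin antibody, and the IgG group holds 2 libraries made with a control mouse IgG. Both groups used hippocampi of mice aged 7 to 9 weeks, with the tissue of 2 mice in each co-immunoprecipitation. The design text speaks of 6 precipitations combined into 2 samples, without saying whether this was done for each antibody. Strain, sex and the number of mice per library are not stated. Whether libraries made with the same antibody stem from different animals is also not stated, and the p-values below therefore cover library-to-library spread alone, which could be technical. No library of input RNA was analysed here, so "higher" means higher in the KIF5C than in the IgG precipitate, and a change in the amount of bound RNA cannot be told apart from a change in the RNA of the lysate.

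The large subunit joins amino acids into protein at its peptidyl transferase centre, and the growing chain leaves through an exit tunnel. Its proteins are made in near-equal numbers from mRNAs that are short, abundant and carry a 5′ terminal oligopyrimidine (TOP) tract, a run of C and T bases at the start that places their translation under the control of the mTOR kinase. In neurons, ribosomal protein mRNAs are also known among the transcripts found in axons and dendrites. Many of these genes have processed pseudogenes, intronless copies of the mRNA elsewhere in the genome, which can share reads with the parent gene.

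The copies matter for how the counts can be read. Of the pseudogenes that GENCODE annotates, 693 aligned to the transcript of one of the 45 genes at 90% identity or more over at least 200 nt. Of these, 24 had a row here, with 75 counts in all 4 libraries together, and the other 669 were not analysed here. A further 13 aligned rows are annotated as other types, mostly coding, and held 3070 counts. Of these, BC004004 matched Rpl21 at 98.6% and had 2637 counts, against 4973 for Rpl21 itself. Wdr89 matched Rplp2 at 99.3% with 226 counts, against 3720 for Rplp2, and Gm2000 matched Rpl35 at 99.6% with 84, against 1119 for Rpl35. The number of annotated pseudogene copies per gene ranged from 0 to 86, with a median of 10, and 32 of the 45 genes had a copy of at least 99% identity. Rpl7a had the most copies, while Rpl8, Rpl39, Rpl41 and Rplp2 had no pseudogene copy by these limits.

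Rpl11, the gene with the largest difference below, and the 2 genes listed at 0 show how close the copies are. The lines give 60 bases of coding sequence (5′ to 3′) of each gene and of its copy, with the base that differs in capitals.
Rpl11: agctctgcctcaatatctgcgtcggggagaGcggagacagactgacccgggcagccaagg
Gm10288: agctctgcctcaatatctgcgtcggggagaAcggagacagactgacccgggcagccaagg
Rpl24: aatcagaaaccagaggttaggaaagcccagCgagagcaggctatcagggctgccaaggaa
Gm9385: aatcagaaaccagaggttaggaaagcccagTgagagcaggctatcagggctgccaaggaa
Rpl18: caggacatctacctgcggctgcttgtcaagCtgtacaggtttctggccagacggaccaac
Gm13436: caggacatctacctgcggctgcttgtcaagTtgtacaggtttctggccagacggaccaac
Gm10288 matched Rpl11 at 99.8% over 537 nt with 1 differing position. Gm9385 matched Rpl24 at 99.8% over 472 nt, also with 1, and Gm13436 matched Rpl18 at 99.3% over 567 nt with 4. None of these copies had a row here, so reads shared with them cannot be seen. Copies without a difference were not chosen for the lines. Gm28037, annotated as a processed transcript, matched Rpl24 at 100% over 485 nt and was listed at 0 in every library. Rpl24 encodes a protein at the interface with the small subunit and Rpl18 a structural protein, and every cell uses both. A listing at 0 is therefore given as listed, not as absence of the mRNA.

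The letters of a TOP tract were searched for around the annotated start sites. RefSeq start sites (GRCm38.p6) were found for 34 of the 45 genes, with 40 sites in all. The motif CTTTC, the core letters of such a tract, lay on the coding strand within 50 bases of 25 of the 40 sites (62.5%), against 12.8% of all 32851 sites. The window takes in bases before as well as after the start, so a match need not be at the first base of the mRNA. On the opposite strand it lay near 3 of them (7.5%), against 12.1% of all. Sites of the same gene can share a match, as those of Rpl35a did, so these are shares of sites, not of genes. The longer motif CCGGAAG, which does not overlap CTTTC in its letters and is bound by ETS-family factors, lay on the coding strand in 6 of the 40 (15%), against 2.75% of all. The next lines show 30 bases around the motif for 3 genes that were lower in the KIF5C precipitate and for 2 others that were not called, with CTTTC in capitals.
Rpl12: ccgtcttttcggCTTTCggctcggaggagg
Rpl26: gcgtgtagttctCTTTCcttttgcggccat
Rpl35a: gcttgccttcctCTTTCcgccatcttggcg
Rpl5: cctacagccactCTTTCtcacgtcgcttgc
Rpl37: gtggcgggggtgCTTTCtcttccggtctct
They lie on the plus strand at chr2:32961710-32961739 for Rpl12, chr11:68901579-68901608 for Rpl26, chr16:33056472-33056501 for Rpl35a, chr5:107900498-107900527 for Rpl5 and chr15:5116629-5116658 for Rpl37. Of the genes shown, only Rpl37 had a positive fold change (log2 0.49, not called). For the other called genes, Rpl11, Rpl32 and Rpl41, no match was listed, either for want of the motif or of a start site. A match is a description of these letters only.

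The libraries held 15172432 and 14623843 counts with KIF5C, and 12543510 and 11059266 with IgG. The mitochondrial 16S rRNA took 7.36% to 11.3% of counts in the libraries numbered 1 and 31.9% to 32.2% in those numbered 2, so the number separates the libraries in depth of coding RNA more than the antibody does. None of the 8 neuronal and 8 hippocampal excitatory markers was at 0. Choroid plexus markers (6 genes, none at 0) summed to 172 and 134 CPM in the KIF5C libraries and 439 and 239 CPM in the IgG libraries. Neuronal markers summed to 4000 and 3920 CPM with KIF5C and 3080 and 3020 CPM with IgG. Hippocampal excitatory markers overlapped, at 735 and 605 CPM with KIF5C and 657 and 575 CPM with IgG. A sum can be dominated by its most abundant gene. Median log2 fold changes (KIF5C over IgG) were 0.34 for neuronal, 0.08 for hippocampal excitatory and -0.28 for choroid plexus markers. They were 0.2 for oligodendrocyte, 0.17 for astrocyte, -0.31 for microglia, -0.29 for endothelial and -0.05 for red blood cell markers. The part of any of these in the results below was not tested.

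Taken as a pool, the 45 mRNAs made up less of the protein-coding RNA of the KIF5C precipitate. In CPM, counts set relative to the TMM-scaled library size, they summed to 2999 and 3317 CPM with KIF5C, against 3867 and 4371 CPM in the IgG libraries, so both KIF5C libraries lay below both IgG libraries. The means were 3160 ± 224 and 4120 ± 356 CPM (SD, n = 2 each), a ratio of 0.767. Of the counts of protein-coding genes they took 0.501% (95% Wilson interval 0.497 to 0.505) and 0.585% (0.58 to 0.591) with KIF5C. With IgG they took 0.681% (0.676 to 0.686) and 0.794% (0.785 to 0.802). Of all counts, the 16S rRNA included, they took 0.383% and 0.292% with KIF5C and 0.482% and 0.311% with IgG, and on that scale the groups overlapped. A difference in bound RNA, fewer cells with these mRNAs in the lysate and less of them per cell cannot be told apart here. The intervals cover counting error only, and the 2 libraries of an antibody differ by more than that.

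Gene by gene, most of the 43 leaned to the IgG side, and few passed the test. Counts were compared with edgeR's quasi-likelihood test across all 14357 genes tested, with Benjamini-Hochberg adjustment and a threshold of 0.05. Rpl11 rose, Rpl12, Rpl26, Rpl32, Rpl35a and Rpl41 fell, and 37 did not pass. The 6 calls stand against a background of 4.07% of all genes tested called in either direction. The 1 gene higher was 2.33% of the 43, against 3.33% of all genes tested, and the 5 lower were 11.6%, against 0.745% of all. The median log2 fold change (KIF5C over IgG) was -0.36 over the 43 and -0.03 over all genes tested, with quartiles of -0.58 and -0.09 for the 43. Fold changes were negative for 35 and positive for 8, against 7520 negative and 6837 positive among all genes tested. The KIF5C libraries did not overlap the IgG libraries for 27 genes on the lower side (62.8%, against 26.2% of all genes tested) and for 5 on the higher side (11.6%, against 26.3%).

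**Figure D1:**
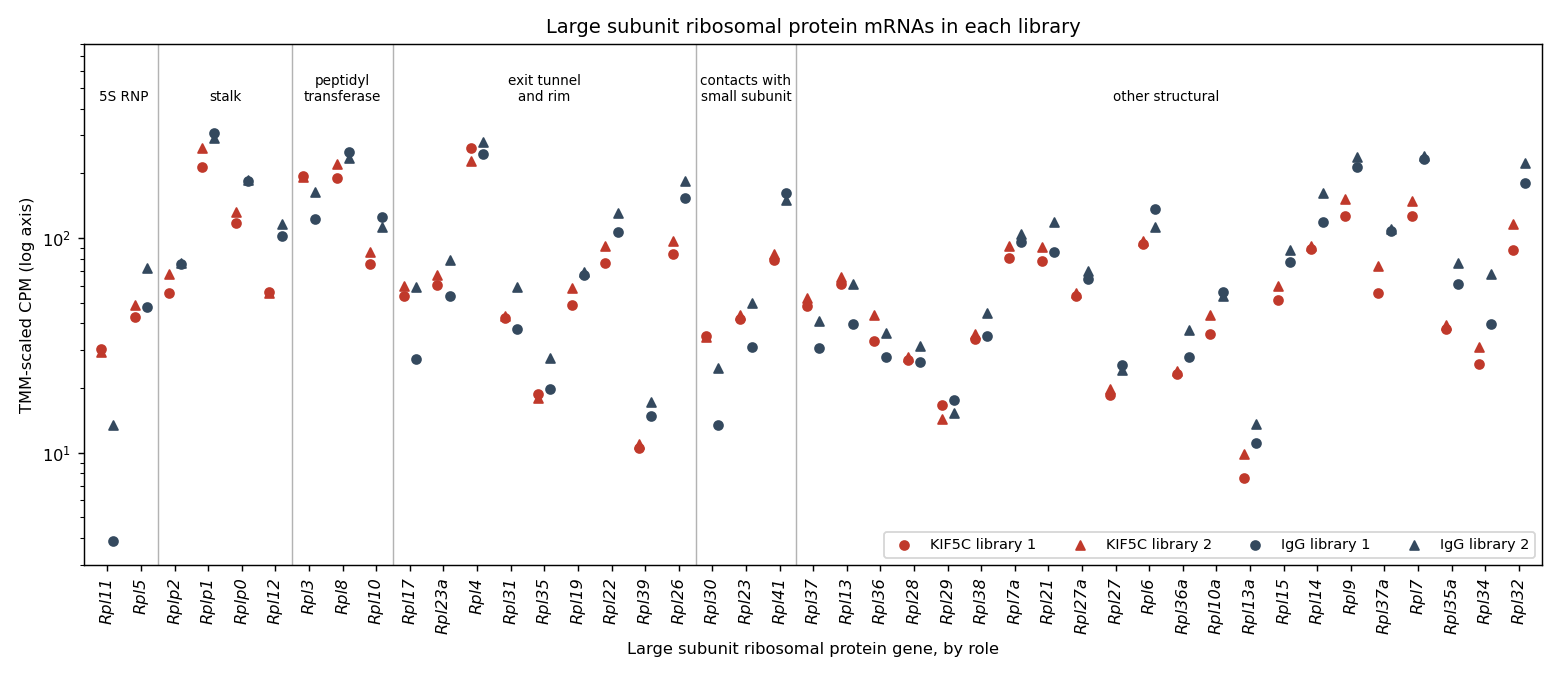
TMM-scaled CPM (log axis) of the 43 genes with counts in each of the 2 KIF5C and 2 IgG libraries, grouped by the protein's place in the subunit; each point is 1 library. Most genes sit lower in KIF5C, while Rpl11 sits at 30.4 and 29.4 CPM with KIF5C and 3.9 and 13.5 CPM with IgG.

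The pair of proteins that bind 5S rRNA went different ways at the mRNA level. Rpl5 and Rpl11 form the 5S ribonucleoprotein with that RNA, which is built into the subunit and, when ribosome assembly is disturbed, binds the p53 regulator Mdm2. Rpl11 (chromosome 4, 136028265 to 136053428) stood at 30.4 and 29.4 CPM with KIF5C and at 3.9 and 13.5 CPM with IgG. The KIF5C libraries were almost equal and both well above IgG, and the IgG libraries differed widely from each other. The counts behind them were 589 and 378 with KIF5C and 61 and 106 with IgG. The log2 fold change was 1.86, or 3.63-fold (SE 0.37, edgeR adjusted p = 0.0134), the highest of the 43. It was 1.15 without IgG library 1 and 2.95 without IgG library 2, and DESeq2 did not call it (1.80, adjusted p = 0.173). In the authors' deposited table, whose log2 values run IgG over KIF5C, Rpl11 stood at -0.73 with an adjusted p of 0.178. The settings behind those log2 values are not stated, so their size may not compare directly with the edgeR value.

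Rpl5 (chromosome 5, 107900502 to 107909005) measured 42.9 and 48.9 CPM with KIF5C and 47.9 and 72.4 CPM with IgG. Its groups overlapped and it was not called (log2 fold change -0.39, SE 0.23, edgeR adjusted p = 0.356). The mRNAs of the 2 partners thus had fold changes of opposite sign, and the difference between the genes was not tested.

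The stalk of the large subunit, which recruits the elongation factors, gave negative values throughout, as did 35 of the 43 genes. Rplp0 anchors the flexible acidic proteins Rplp1 and Rplp2, and Rpl12 sits at the stalk's base. Rpl12 (chromosome 2, 32961559 to 32965345) measured 56.0 and 55.7 CPM in the KIF5C libraries and 102 and 116 CPM in the IgG libraries. Its KIF5C values were nearly identical and about 0.511 times those of IgG (log2 fold change -0.97, SE 0.21, edgeR adjusted p = 0.0192). Rplp0 stood at 117 and 132 CPM with KIF5C and 185 and 186 CPM with IgG (-0.58, SE 0.22, adjusted p = 0.146 in edgeR). Rplp1 stood at 215 and 262 CPM with KIF5C and 307 and 292 CPM with IgG (-0.33, SE 0.24, adjusted p = 0.457 in edgeR). Rplp2 stood at 55.3 and 67.6 CPM with KIF5C and 75.3 and 76.8 CPM with IgG (-0.31, SE 0.21, adjusted p = 0.423 in edgeR). Rpl12 alone among the 4 passed the test (25%, against 0.745% of all genes tested called lower). In all 4 the KIF5C libraries lay below both IgG libraries. The same order of libraries held for 27 of the 43 genes (62.8%) and for 26.2% of all genes tested. The median of the 4 was -0.45, close to the -0.43 of the 22 other structural genes, so the lean was not particular to the stalk.

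Near the peptidyl transferase centre, Rpl3 and Rpl10 had opposite signs and neither was called. Rpl3 contacts the centre, and Rpl10 joins late in assembly and completes it. Rpl3 measured 194 and 192 CPM with KIF5C and 122 and 163 CPM with IgG (log2 fold change 0.44, SE 0.23, edgeR adjusted p = 0.289). Rpl10 measured 75.8 and 86.2 CPM with KIF5C and 125 and 113 CPM with IgG (-0.56, SE 0.22, adjusted p = 0.15 in edgeR). The groups did not overlap for either gene. Rpl8, the third gene of this group, was at -0.25 (SE 0.23).

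Of the 9 genes of the exit tunnel and its rim, Rpl26 fell, 8 did not pass, and the median was -0.35. The 1 that fell was 11.1% of the group, against 0.745% of all genes tested. Rpl26 (chromosome 11, 68901583 to 68906989), at the rim, measured 84.2 and 97.2 CPM in the KIF5C libraries and 154 and 185 CPM in the IgG libraries, with no overlap. Its log2 fold change was -0.90 (SE 0.23, edgeR adjusted p = 0.0364). Rpl39, a very small protein that lines the tunnel, measured 10.5 and 11 CPM with KIF5C and 14.8 and 17.3 CPM with IgG (-0.58, SE 0.23, adjusted p = 0.16 in edgeR). Rpl17, also at the rim, was the 1 gene of the 9 with a positive value, 0.41 (SE 0.28), with 53.6 and 59.9 CPM with KIF5C and 27.2 and 59.0 CPM with IgG. Its groups overlapped, since IgG library 2 reached the KIF5C level.

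Of the 3 tested genes whose proteins contact the small subunit, Rpl41 fell and the others had positive values. The 1 that fell was 33.3% of the group, against 0.745% of all genes tested. Rpl41 (chromosome 10, 128548114 to 128549305) encodes the shortest of the ribosomal proteins. With KIF5C it stood at 78.9 and 83.8 CPM and with IgG at 162 and 150 CPM, with a wide gap between the groups. Its log2 fold change was -0.94 (SE 0.22, edgeR adjusted p = 0.0258). Rpl30, whose yeast counterpart binds its own transcript and blocks its splicing, measured 35.0 and 34.4 CPM with KIF5C and 13.5 and 24.9 CPM with IgG. The groups did not overlap, and the value of 0.87 (SE 0.26) missed the threshold in edgeR (adjusted p = 0.0681). Rpl23 was at 0.09 (SE 0.24), and Rpl24 could not be tested.

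Among the 22 other structural genes tested, Rpl32 and Rpl35a fell, 20 did not pass, and 19 had negative values (median -0.43). The 2 that fell were 9.09% of the group, against 0.745% of all genes tested. Rpl32 (chromosome 6, 115805505 to 115808747) measured 87.5 and 116 CPM in the KIF5C libraries and 181 and 224 CPM in the IgG libraries. It had the lowest log2 fold change of the 43, at -0.99 or 0.502-fold (SE 0.24, edgeR adjusted p = 0.03). Rpl35a (chromosome 16, 33056453 to 33060189), whose human counterpart is mutated in Diamond-Blackfan anaemia, measured 37.5 and 39.3 CPM with KIF5C and 61.1 and 76.8 CPM with IgG. Its value was -0.84 (SE 0.22, adjusted p = 0.0387 in edgeR), and both KIF5C libraries lay below both IgG libraries. Rpl34 (-0.91) and Rpl7 (-0.79) had values of similar size and missed the threshold in edgeR, with adjusted p of 0.0516 and 0.0614. Rpl13a, known in human cells for leaving the ribosome to silence inflammatory mRNAs, measured 7.59 and 9.87 CPM with KIF5C and 11.1 and 13.6 CPM with IgG (-0.50, SE 0.25). The 3 positive values in this group were those of Rpl37 (0.49, SE 0.22), Rpl13 (0.34, SE 0.23) and Rpl36 (0.27, SE 0.23), and none of the 3 was called.

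**Figure D2:**
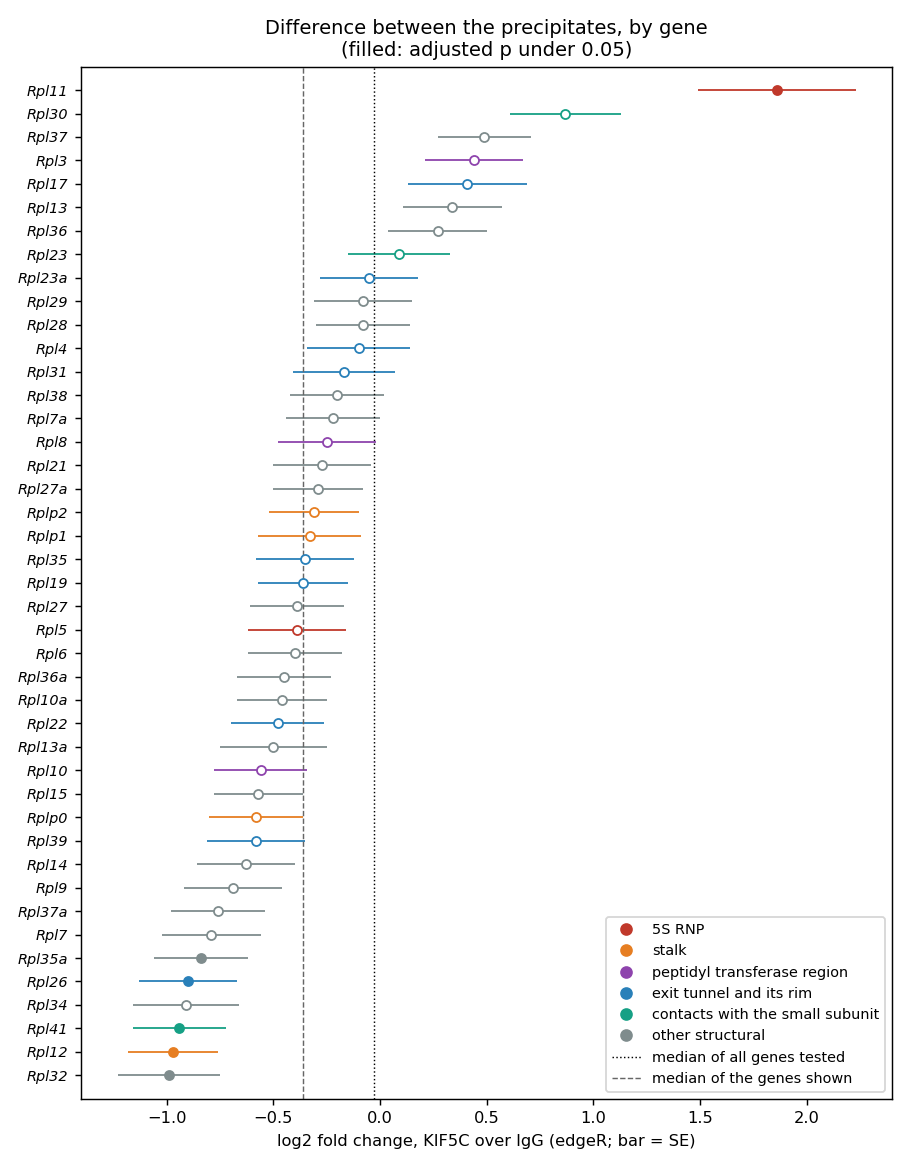
Log2 fold change (KIF5C over IgG, edgeR) of each of the 43 genes with its SE as a bar, coloured by the protein's place; filled points passed an adjusted p of 0.05. The dashed line is their median of -0.36 and the dotted line the median of all genes tested, -0.03; Rpl11 stands at 1.86 and Rpl32 at -0.99.

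The number of genes that fell depended on single libraries. It was 0 without KIF5C library 1, 1 (Rpl32) without KIF5C library 2, 9 without IgG library 1 and 1 (Rpl41) without IgG library 2, against 5 with all 4 libraries. Lower calls among all genes tested moved with it, at 0.184% without KIF5C library 1, 0.485% without KIF5C library 2, 3.93% without IgG library 1 and 0.257% without IgG library 2. The log2 fold change of Rpl11 was positive in all 4 of these fits, from 1.15 to 2.95. Rpl32 and Rpl41 were each called in 2 of the 4, and Rpl12, Rpl26 and Rpl35a each in 1. The median of the 43 was negative in each fit, from -0.44 to -0.28. With offsets for GC content and transcript length it was -0.19, with Rpl12, Rpl32 and Rpl41 lower and Rpl11, Rpl30 and Rpl37 higher. In that fit 0.829% of all genes were called lower and 2.77% higher. With library totals in place of TMM scaling the median of all genes moved by 0.14, the median of the 43 was -0.22 with 30 negative values, and none was called.

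**Figure D3:**
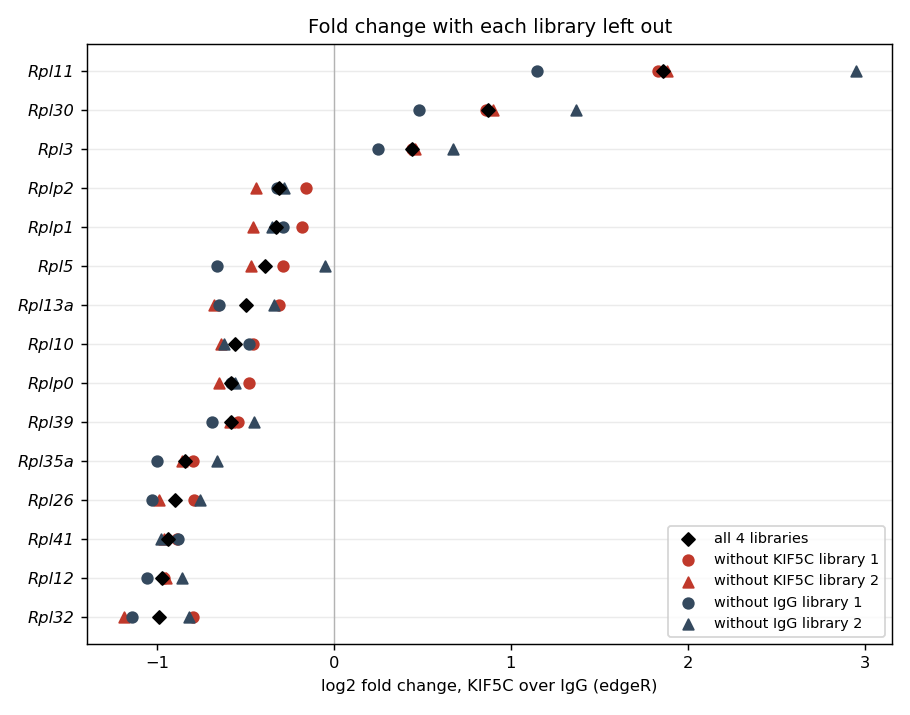
Log2 fold change (KIF5C over IgG, edgeR) of 15 genes with all 4 libraries (diamonds) and with each library left out in turn. Rpl11 spreads from 1.15 to 2.95 depending on which IgG library is used, while Rpl41 keeps within -0.98 to -0.88.

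The 2 KIF5C libraries gave closer values for these mRNAs than the 2 IgG libraries did. The log2 ratio of library 1 to library 2 had an SD across the 43 genes of 0.15 with KIF5C and 0.37 with IgG, against 0.36 and 0.48 over all genes tested. With KIF5C the ratio ran from -0.41 for Rpl37a to 0.22 for Rpl29, and with IgG from -1.67 for Rpl11 to 0.28 for Rpl6. All 8 genes with a positive fold change were lower in IgG library 1 than in IgG library 2. Their log2 differences ran from 0.38 to 1.67, and 27 of the other 35 genes were lower there too. The median of this ratio over the 43 was -0.26. A low IgG library 1 itself raises the fold change that picked the 8, so nothing is concluded from their count. Counted by pairs of libraries with the same number, 31 genes were negative in both pairs, 7 were positive in both and 5 changed sign. The median for single pairs ran from -0.51 (KIF5C library 1 over IgG library 2) to -0.20 (KIF5C library 2 over IgG library 1).

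Per length of 1 annotated transcript, the counts of the genes were far from equal. The coding part was 609 of 1047 nt for Rpl13a and 153 of 612 nt for Rpl39, against 342 of 499 nt for Rplp1. Which transcripts the libraries held was not tested, and copies can share reads, so the order need not be that of mRNA levels. CPM per kb of the annotated transcript, averaged over the 4 libraries, was highest for Rplp1 at 539 and Rpl32 at 294. It was lowest among the genes with counts for Rpl13a at 10.1 and Rpl39 at 21.9. Rplp1 had 431 and 526 CPM per kb with KIF5C and 615 and 585 with IgG, above every other member in every library. Rpl13a had 7.25 and 9.43 CPM per kb with KIF5C and 10.6 and 13.0 with IgG, the lowest in both KIF5C libraries and in IgG library 2. In IgG library 1 Rpl11 was the lowest, at 4.69 CPM per kb, against 36.5 and 35.3 with KIF5C. Rpl39, Rpl35, Rpl29, Rpl11, Rpl28 and Rpl5 followed Rpl13a with means of 21.9 to 25.9 CPM per kb, and these neighbours overlapped in their spread over libraries.

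Within the 43 genes, fold changes followed the properties of the genes only weakly. Over the 43 genes, Spearman's rho of the fold change was -0.33 with mean abundance and 0.11 with transcript length. It was 0.09 with GC content, 0.18 with the number of pseudogene copies and 0.33 with the number of snoRNAs in introns. These are descriptions across genes measured in the same 4 libraries. A correlation within the 43 does not measure a shift that they share. With offsets for GC content and transcript length their median was -0.19 against -0.36 without, and positive values were 15 against 8. The 19 genes that host snoRNAs had a median log2 fold change of -0.27, and the 24 that host none had -0.46. The 4 genes without an annotated pseudogene copy had a median of -0.44, with Rpl41 lower, and the 39 with copies had -0.36. Of these 4, Rpl41 and Rplp2 had close rows of other types, Gm10076 with 45 counts and Wdr89 with 226. The split therefore does not separate out genes free of close copies. Rpl36al, an expressed near-copy of Rpl36a, was at 0.01 (SE 0.24), beside -0.45 (SE 0.22) for Rpl36a.

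Other ribosomal lists also had negative medians. Of 32 small subunit genes, 5 fell, 2 rose and 25 did not pass, with a median of -0.54. The calls were 15.6% lower and 6.25% higher, against 0.745% and 3.33% of all genes tested. Rps7 was the lowest at -1.09 (SE 0.23). The mitochondrial ribosome's large subunit, built from nuclear genes, had a median of -0.33 over 47 genes, with 2 lower (4.26%), 0 higher and 45 that did not pass. Large subunit assembly and export factors had a median of -0.05 over 39 genes, and of these the snoRNP protein gene Nop56 (1.19, SE 0.22) and Aamp (1.02, SE 0.21) rose and 0 fell. These 2 are 5.13% of the list, near the 3.33% of all genes tested. Of 14 other translation genes known as TOP mRNAs, Eif3f rose (0.89, SE 0.23), 13 did not pass, and the median was -0.19. Eif3f alone is 7.14% of that list, against 3.33% of all genes tested called higher. Of the elongation factor genes in that list, Eef2 was the highest at 0.84 (SE 0.27) and Eef1a1 the lowest at -0.64 (SE 0.31). Eef1d (0.07), Eef1b2 (-0.2) and Eef1g (-0.45) lay between them, and none of these genes was called. Differences between these lists were not tested.

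**Figure D4:**
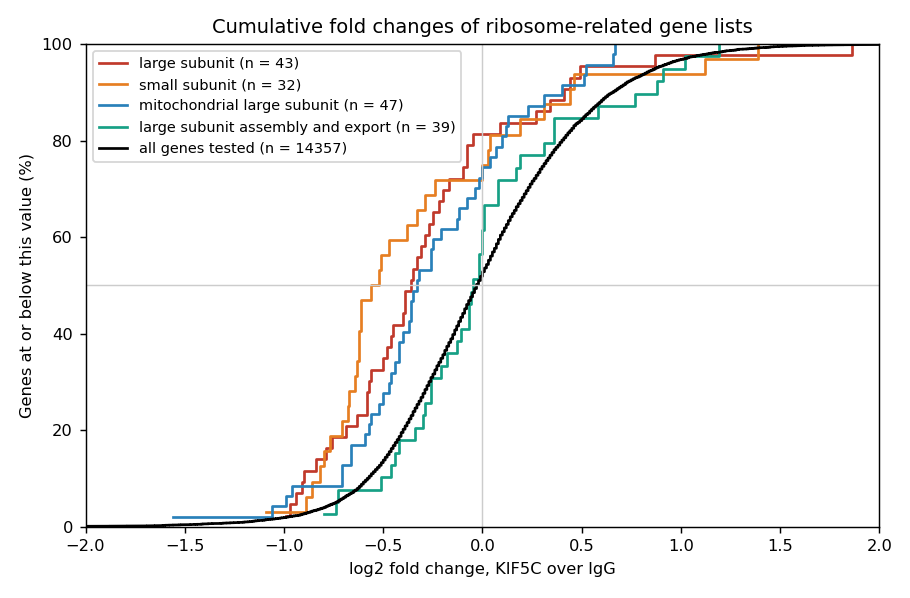
Cumulative share of genes (%) at or below each log2 fold change (KIF5C over IgG) for the large subunit, the small subunit, the mitochondrial large subunit, assembly and export factors, and all 14357 genes tested. The curves cross 50% at -0.36, -0.54, -0.33, -0.05 and -0.03 in that order; Mrpl12 at -1.56 is the lowest point of the mitochondrial curve.

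The authors' deposited table gave an adjusted p under 0.05 to 9 of the 43 genes, each with a positive log2 value there, that is, lower in the KIF5C precipitate. Over all 10999 genes with an adjusted p in the authors' deposited table, 1.08% were lower with KIF5C and 5.82% higher. The smallest adjusted p among the 9 were those of Rpl41 (0.84, adjusted p = 0.00104) and Rpl12 (0.86, adjusted p = 0.00106) in the authors' deposited table. The 9 include the 5 that fell in edgeR together with Rpl7, Rpl9, Rpl34 and Rpl37a in the authors' deposited table. None was called higher there, and Rpl30 came closest in the authors' deposited table with an adjusted p of 0.0509.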

How the data were processed

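The authors' deposited counts, whole numbers per gene and not normalized, were used for 4 libraries, matched to samples through their descriptions. The submitters' processing notes name Salmon, DESeq and the build GRCm38, without annotation, strandedness or settings. Salmon can share reads between near-identical transcripts, so ribosomal protein counts are uncertain. The authors' deposited comparison holds log2 fold changes and SEs, p-values and adjusted p-values, a linear fold, a test statistic (a score per gene) and mean normalized counts (a signal); the last 3 were not used.

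Genes were tested with edgeR 4.0.16 (R 4.3.3; TMM, filterByExpr with minimum count 10 and total 15, group as the only term); adjusted p is Benjamini-Hochberg over 14357 genes. The fit was tested on simulated data first. It recovered 89% of the genes given a log2 change of 2 in size and 39% of those given 1. A gene that did not pass is therefore not shown to be unchanged. Alternatives were DESeq2 1.42.0, limma-voom (3.58.1) and those named in the closing section. Annotation was GENCODE mouse release 21 (GRCm38), 1 principal transcript per gene; symbols matched 36148 rows and older symbols 610. Copies were found with blastn 2.17.0; start sites are RefSeq's. The 27 rows with date names (0.121% to 0.252% of counts) stayed in the tests unnamed. Genes, lists and the rule for named genes (called members, 5S and stalk proteins, the 2 smallest p per other role, extremes per kb) were chosen with earlier results of these data known. Further genes (Rpl6, Rpl7, Rpl7a, Rpl8, Rpl9, Rpl13, Rpl17, Rpl23, Rpl28, Rpl29, Rpl34, Rpl35, Rpl36, Rpl36a, Rpl37, Rpl37a, Eef2, Eef1a1, Eef1b2, Eef1d, Eef1g, Nop56, Aamp, Eif3f, Mrpl12) were named after their values were seen. The rule also covers genes outside the 45, and some of these are not reported here.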

Additional observations from a re-analysis of the deposited data

How the results depend on the processing

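The count of large subunit genes lower in the KIF5C precipitate was 5 with edgeR, beside 0.745% of all genes tested. It was 9 with DESeq2 (1.04% of all), 8 at a mean count of at least 50 (1.31%) and 9 at an adjusted p under 0.1 (2.38%). With offsets for GC content and length it was 3 (0.829%), and with library totals 0 (0.0279%). The count of genes higher was 1 with edgeR, beside 3.33% of all. It was 0 with DESeq2 (4.37% of all) and with library totals (0.00697%), and 3 with offsets for GC content and length (2.77%). It was 2 with limma-voom (3.71%), without a low-count filter (4.06%) and at an adjusted p under 0.1 (6.19%). Neither count moved by more than 1.5 times with DESeq2's size factors, with named pseudogene rows or all aligned copies added to their gene, or without the 16S, 12S and Lars2 rows; adding all aligned copies was chosen after seeing the data. The median of the genes, -0.36, was -0.19 with offsets for GC content and length and negative under every alternative run, from -0.44 to -0.18, and none of the 15 genes named by rule changed sign. Over all genes, calls on the higher side made 81.7% of the total, against 1 of 5 calls (20%) with library totals, where the median of all genes was 0.11, and 62.5% without IgG library 1.

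Libraries of the 2 antibodies share numbers in the labels, but nothing says what a number marks, and deviations of same-numbered libraries correlated at 0.14 over all genes tested and -0.19 over the 43. With the replicate block the counts were 2 higher and 13 lower, while 8.09% of all genes were called higher and 3.6% lower. Rpl30, Rpl10 and Rplp0 (adjusted p = 0.0363 in edgeR) were among the added calls. With the block and the offsets the counts were 5 higher and 8 lower (median -0.18). Of all genes, 6.67% were then called higher and 4.03% lower. With 1 library left out, the lone library is assumed to vary like those of the other antibody. Rpl11 had 61 counts in IgG library 1, which limits the precision of its fold change.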
